A study of Mus musculus with 12 samples.

Results

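Most nuclear genes for the mitochondrial protein import machinery were lower in leukemic mouse T cells (T-ALL, T-cell acute lymphoblastic leukemia) after 3 days of doxycycline, the treatment that switched Ikaros back on in these cells. The genes described here are the protein-coding genes named for the translocases of the outer and inner mitochondrial membrane (symbols Tomm or Timm with a number, and Timmdc1) and for the coiled-coil-helix domain proteins (Chchd with a number). Pam16, Dnajc19, Grpel1, Hspa9, Pmpca, Pmpcb and Samm50 complete the set. The rule found 41 of the 27179 genes in the count table. The rule itself uses names and no measured value, but it was chosen with earlier results of these data known. A non-coding and a pseudogene transcript with matching names, Tomm6os and Chchd2-ps, are not members.

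Nearly all mitochondrial proteins are made in the cytosol and carried into the organelle. The TOM complex is the entry gate of the outer membrane, from which proteins pass to the SAM complex for insertion of barrel-shaped proteins, to the small TIM chaperones and MIA pathway of the intermembrane space, to the TIM22 complex for carrier proteins, or to the TIM23 channel. The PAM motor, built around the mitochondrial Hsp70, pulls the chain through TIM23 into the matrix, where the processing peptidase removes the targeting signal.

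The cells came from ALL101, a primary leukemia of Vav-tTA;TRE-GFP-shIkaros mice, in which the tetracycline transactivator tTA, driven by the blood-cell Vav promoter, switches on a GFP-linked hairpin RNA against Ikaros, the lymphoid transcription factor encoded by Ikzf1. T-ALL cells were sorted from spleens of leukemic recipient mice, 3 untreated and 3 given doxycycline for 3 days. Counts of the 2 sequencing runs of an RNA were added, so n is the number of mice. Untreated cells were sorted as GFPhigh and treated cells as GFPmid, so the sort gate and the treatment cannot be told apart, and doxycycline itself cannot be told apart from the return of Ikaros without treated cells that lack the hairpin. The library name of untreated mouse 3 has INJ in place of the sort wording of the others. All 6 mice carried the same single leukemia, and the p-values measure the spread between these mice.

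Ikzf1 was at 153, 149.7 and 159 CPM (counts scaled to a common library size) in the untreated mice and at 1438, 1523 and 1495 CPM in the treated mice, a rise of 3.27 ± 0.07 (log2 fold change ± SE) with an edgeR adjusted p of 1.21e-07, in the direction the labels give. Mice had 29904744 to 44949303 counts, so that 3 counts correspond to 0.0667 to 0.10 CPM. The 8 T-cell markers were abundant, with sums of 4862 to 5109 CPM untreated and 6162 to 7540 CPM treated, and were not stable: Cd4 (2.16 ± 0.26), Cd8a (2.02 ± 0.18) and Thy1 (0.25 ± 0.06) rose, Ptcra (-2.17 ± 0.48) and Cd3g (-0.45 ± 0.07) fell, and Cd3d, Cd3e and Lck did not pass the test. The B-cell genes Pax5 and Ms4a1 were at or near 0 and the levels of Ighm overlapped between the groups. Markers of other cell types also moved with treatment. The 7 myeloid markers summed to 22.5 to 40.8 CPM in untreated and 63.0 to 83.7 CPM in treated mice, with Csf1r, Itgam and Adgre1 higher and S100a8, S100a9 and Mpo lower. The 6 erythroid markers summed to 12.5, 6.51 and 59.3 CPM in untreated mice 1 to 3 and to 85.0 to 107 CPM in treated mice. The high untreated value is that of mouse 3, whose library name lacks the sort wording. The 4 stromal and endothelial markers, nearly all Pecam1 and Col1a2, summed to 233 to 262 CPM untreated and 336 to 350.0 CPM treated. Of these, Pecam1, Col1a1 and Col1a2 were called higher. Cdh5 was near 0, with 11, 1 and 0 counts untreated and 2, 1 and 1 counts treated, and was not tested. Which cells the Pecam1 RNA came from was not tested. The part of these other cell types in the import results was not tested. In these bulk samples, fewer cells of a type and less RNA per cell cannot be told apart.

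Of the 41 import genes, 39 had enough counts to test. Tomm20l, a Tomm20-related gene, had 2 counts over all mice and Timm8a2, a relative of Timm8a1, had 19, and neither was tested. After doxycycline 24 of the 39 fell and 1, Tomm34, rose at an adjusted p below 0.05 (edgeR quasi-likelihood test, Benjamini-Hochberg over 13134 genes). Among all 13134 genes tested, 25.2% were called lower and 24.8% higher. In 32 of the 39 import genes every treated mouse lay below every untreated mouse, an arrangement seen in 30.9% of all tested genes, while 1 gene was wholly above and 6 overlapped. The estimates of 36 import genes were below zero, with a median log2 fold change of -0.34 (range -1.11 to 0.38), beside a median of -0.0037 over all tested genes.

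The changes were moderate in size. Of the called genes, 9 were at least 1.5-fold lower, namely Chchd6, Timm10, Timm9, Hspa9, Timm8a1, Chchd4, Tomm70a, Tomm5 and Chchd3, where 11.2% of all tested genes passed that limit. Chchd6 alone was at least 2-fold lower, and Timm10 lay just short of that limit (1.9997-fold). Of all 13134 tested genes, 771 were called and at least 2-fold lower. The summed level of all import genes was 4056, 3792 and 3663 CPM in the untreated mice and 2765, 2669 and 2954 CPM in the treated mice, a difference of -27.1% between the group means. Hspa9 took the largest share of these counts, and without it the sum went from 3282, 3085 and 3006 CPM to 2363, 2313 and 2517 CPM. Each treated mouse was below each untreated mouse with and without Hspa9.

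**Figure D1:**
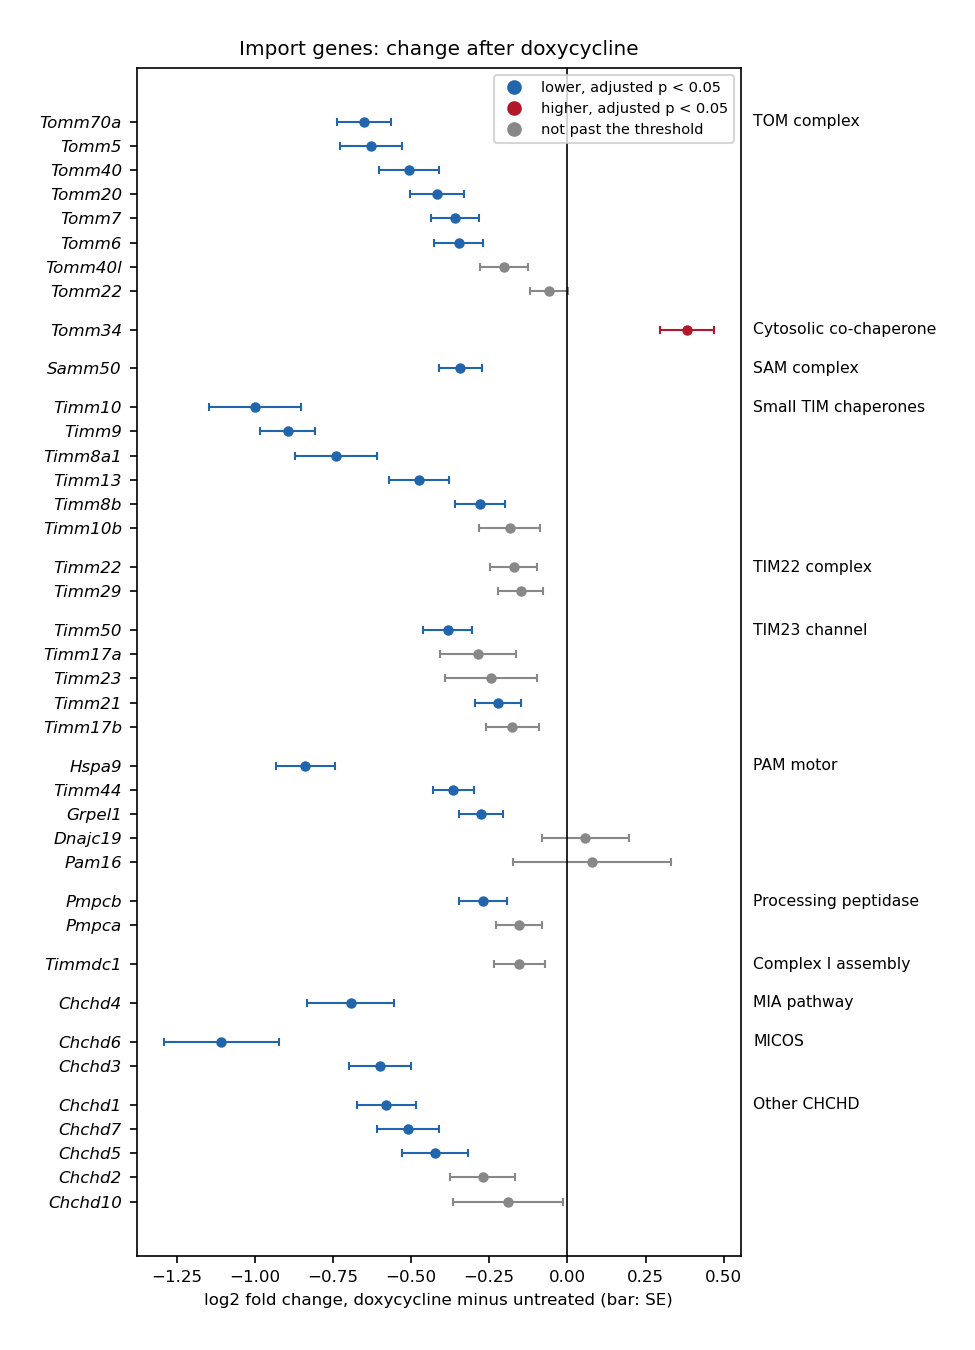
Log2 fold change of the 39 tested import genes, doxycycline minus untreated (horizontal axis, log2 units), grouped by complex, with bars of 1 SE and 3 mice per group. Blue points were called lower, the red point (Tomm34) higher and grey points did not pass an adjusted p of 0.05; estimates run from -1.11 for Chchd6 to 0.38 for Tomm34.

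Of the sets formed by compartment, the intermembrane space set, here the small TIM chaperones with Chchd4, had the lowest median. It had 6 of 7 tested genes lower and a median log2 fold change of -0.69. The other CHCHD genes, Chchd7 of the same space among them, were not in this set and had a median of -0.42. The outer membrane set (TOM with Samm50) had 7 of 9 lower with a median of -0.36. The inner membrane set (TIM22, the TIM23 channel and the PAM motor) had 5 of 12 lower with a median of -0.23. Of all tested genes 25.2% were called lower, the share to set beside these counts and those per complex below. The differences between these sets were not tested. On a scale of CPM per kb, which allows levels of different genes to be added, the summed group mean differed by -21.4% in the outer set, -29.2% in the inner set and -29.7% in the intermembrane set. Hspa9 carried much of the inner sum, and without it the summed group mean of the inner set differed by -17.4%.

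**Figure D2:**
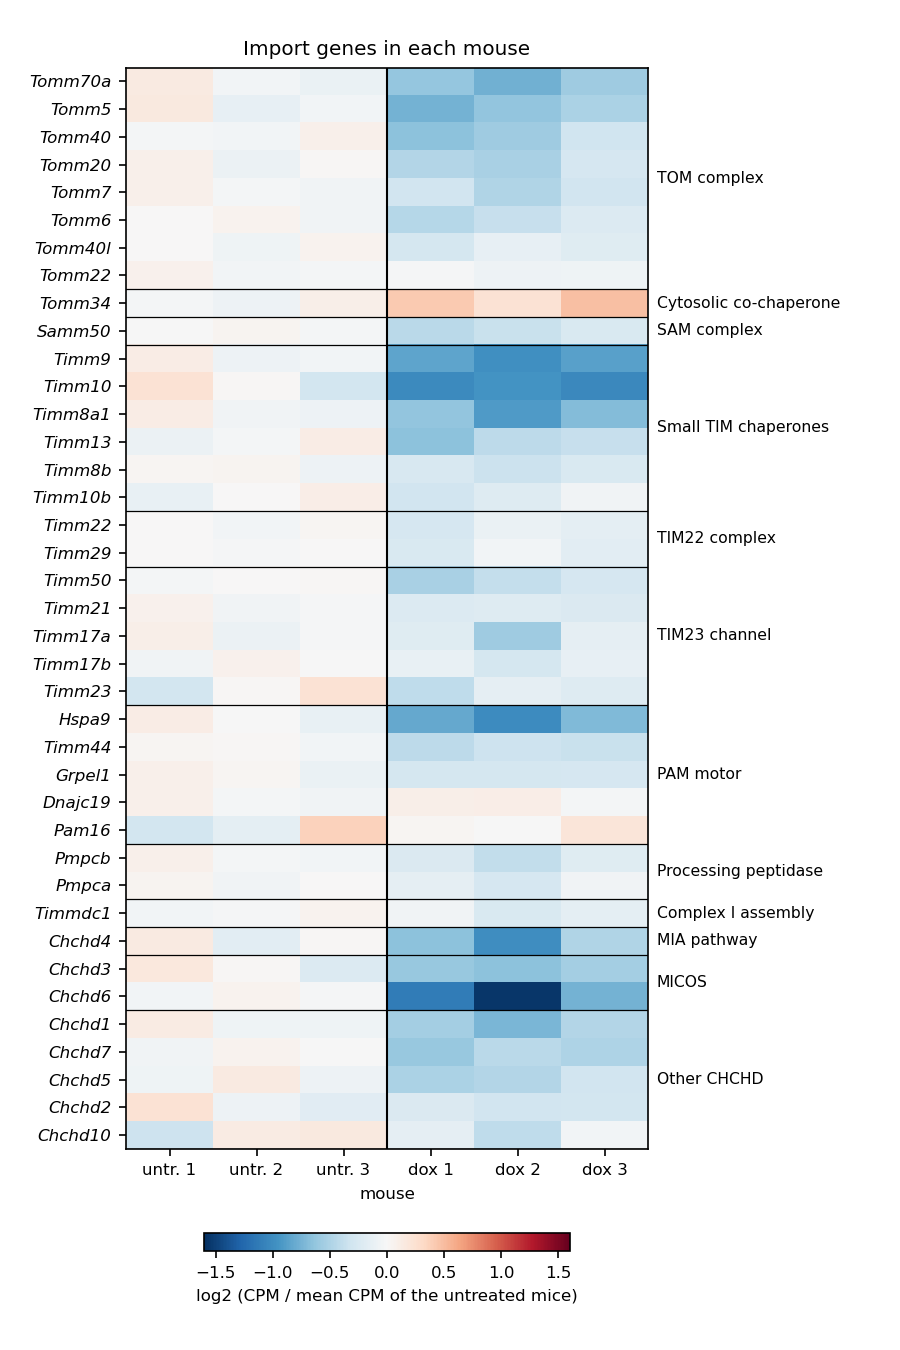
Level of each tested import gene in each of the 6 mice, as log2 of its CPM over the mean CPM of the untreated mice (colour, log2 units), with rows grouped by complex and a line between untreated (untr.) and doxycycline (dox) mice. The treated columns are blue for most rows, most deeply for Chchd6 in treated mouse 2, and red for Tomm34.

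RefSeq promoter windows (250 bases before to 50 after a transcript start, GRCm38.p6) were found for 33 of the 39 tested genes. Chchd2, Chchd7, Hspa9, Timm21, Tomm40l and Tomm7 had none in the table. The E-box CACGTG, the same letters on both strands and known as a core bound by MYC and related factors, lay in 6 of the 33 windows (18.2%), those of Tomm20, Timm9, Timm10, Timm8a1, Chchd3 and Chchd1. It lay in 11.7% of 9897 tested genes with a window, in 15.4% of the lower genes and in 7.15% of all 32851 windows. All 6 import genes with it were called lower, with a median log2 fold change of -0.67, against -0.28 for the other import genes with a window. Of all 39 tested import genes, 24 were called lower, and of all tested genes 25.2%. Whether import genes with and without the E-box differ was not tested. The stretches around a match are shown for the 4 genes in which it lies before the start, with the E-box in capitals, together with the single NRF1 core match, in Timm13.
Tomm20 E-box, chr8:126946017-126946072, minus strand: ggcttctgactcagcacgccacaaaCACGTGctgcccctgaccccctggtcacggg
Timm9 E-box, chr12:71136703-71136758, minus strand: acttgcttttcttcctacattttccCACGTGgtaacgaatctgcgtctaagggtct
Timm8a1 E-box, chrX:134541876-134541920, minus strand: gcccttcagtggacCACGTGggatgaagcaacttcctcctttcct
Chchd1 E-box, chr14:20702777-20702822, plus strand: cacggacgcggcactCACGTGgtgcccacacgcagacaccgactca
Timm13 NRF1 core, chr10:80901129-80901187, minus strand: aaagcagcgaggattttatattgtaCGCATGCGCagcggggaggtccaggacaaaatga

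The windows of Timm9 and Timm8a1 each held 2 E-boxes, of which 1 is shown, and those of Tomm20 and Chchd1 held 1. The last letter of the E-box shown lay 53 bases before the transcript start of the Timm9 window and 121 before that of Tomm20. For Chchd1 it lay 230 and for Timm8a1 231 bases before. The transcript start of the Timm9 window lies inside the gene span given below, whose upstream end is nearer to the E-box. The other motifs searched on both strands are linked to nuclear genes for mitochondria or to Ikaros. The NRF1 core GCGCATGCG was found in 1 of 33 import windows (3.03%) and 4.18% of tested genes, and its looser form GCGCANGCG, which includes the core, in 5 (15.2%) and 15.3%. The ETS core CCGGAAG, as bound by GABPA, was found in 14 import windows (42.4%) and 20.8% of tested genes. Import genes with the ETS core had a median log2 fold change of -0.26 and those without it -0.38. The Ikaros core TGGGAA was found in 12 import windows (36.4%) and 26.2% of tested genes. Import genes with the Ikaros core had a median of -0.42 and those without it -0.29. For the looser NRF1 form the medians were -0.42 and -0.32. Among the lower genes with a window, 28.3% had the Ikaros core, 20.2% the ETS core, 16.7% the looser NRF1 form and 4.33% the NRF1 core. These differences were not tested. A match describes the letters in the window and not binding.

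TOM is the outer membrane gate, and 6 of its 8 tested genes fell. Here and below, levels are given for untreated mice 1 to 3 and then for treated mice 1 to 3. Tomm70a (GRCm38 chromosome 16, 57121714 to 57154530) encodes the receptor that takes carrier proteins and other hydrophobic precursors from cytosolic chaperones. It was at 401, 354 and 338 CPM in the untreated mice and 237, 214 and 246 CPM in the treated mice, without overlap. The group means were 364 ± 32.7 and 232 ± 16.4 CPM (SD, n = 3 each), a fall of 0.65 ± 0.09 log2 units (edgeR adjusted p = 0.000596). Tomm5, a small subunit that stabilises the gate, was at 55.2, 45.4 and 48.2 CPM and then 29.4, 31.9 and 34.8 CPM. It fell by 0.63 ± 0.10 log2 units (adjusted p = 0.00131), again with no overlap.

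Tomm40 encodes the barrel-shaped pore itself. Its level was 126, 125 and 137 CPM in the untreated mice and 82.2, 87.4 and 104 CPM in the treated mice, a fall of 0.51 ± 0.10 log2 units (edgeR adjusted p = 0.00283). The highest treated mouse, mouse 3, stayed below the lowest untreated mouse. Tomm20, the receptor for cleavable targeting signals and a gene with an E-box shown above, was at 103, 91.7 and 99.0 CPM and 70.8, 68.2 and 81.0 CPM and fell by 0.42 ± 0.09 (adjusted p = 0.0043). The small subunits Tomm7 and Tomm6 fell by 0.36 ± 0.08 and 0.35 ± 0.08 log2 units (adjusted p = 0.00491 and 0.00701). Tomm6 overlaps Usp49 in the annotation, and the strand setting of the counting is not given in the sources used here.

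The remaining outer membrane translocase genes did not pass the test. Tomm22, the central receptor that joins the pores, was at 189, 174 and 175 CPM and 176, 169.7 and 170.5 CPM, and the groups overlapped (difference -0.06 ± 0.06, adjusted p = 0.453). Its share of the summed TOM level per kb went from 27.8, 27.7 and 27.7% to 35.2, 34.6 and 32.0%. Tomm40l, a second pore gene, was at 42.6, 40.5 and 44.1 CPM and 34.9, 38.5 and 37.0 CPM, a difference of -0.20 ± 0.08 (adjusted p = 0.0519) in which every treated mouse lay lower. Samm50, the core of the SAM complex, fell from 262 ± 6.53 to 207 ± 13.6 CPM (mean ± SD, n = 3 each). Its values were 260.4, 269.6 and 257 CPM untreated and 194, 206 and 221 CPM treated, or -0.34 ± 0.07 on the log2 scale (edgeR adjusted p = 0.00381).

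Tomm34 went the other way. It encodes a cytosolic co-chaperone that hands precursors between Hsp70 and Hsp90 and is not a part of the gate, despite its name. It was at 66.5, 64.2 and 72.4 CPM in the untreated mice and 90.4, 79.6 and 94.5 CPM in the treated mice, with every treated mouse above every untreated one. It rose by 0.38 ± 0.09 log2 units, or 30.3% between group means (edgeR adjusted p = 0.00653). Tomm34 (GRCm38 chromosome 2, 164053538 to 164071178) was the only import gene called higher, and it was called higher in all 19 analysis settings.

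**Figure D3:**
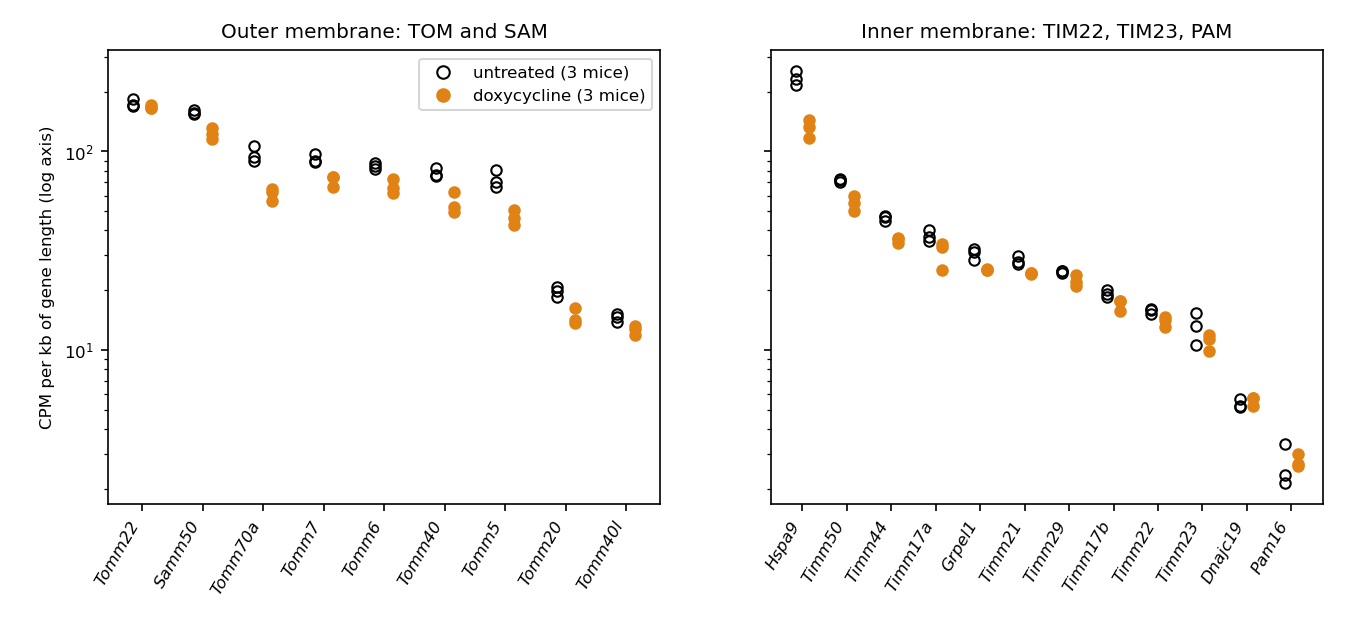
Levels of the 9 tested outer membrane genes (left) and 12 inner membrane genes (right) in CPM per kb of gene length (log axis), with each of the 3 untreated (open) and 3 doxycycline (filled) mice as a point. Tomm22 and Hspa9 have the highest levels in their panels, and the groups overlap for Tomm22, Timm23, Dnajc19 and Pam16.

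The small TIM proteins form ring-shaped chaperones that escort hydrophobic proteins across the intermembrane space, and 5 of the 6 tested genes fell. Timm9 and Timm10 encode the partners of the main ring. Timm9 (GRCm38 chromosome 12, 71123172 to 71136708) was at 45.3, 39.5 and 40.3 CPM untreated and 23.3, 21.2 and 22.8 CPM treated, a fall of 0.90 ± 0.09 log2 units (edgeR adjusted p = 0.000163). Timm10 (GRCm38 chromosome 2, 84827021 to 84830213) was at 17.1, 14.7 and 11.9 CPM and 7.17, 7.504 and 7.15 CPM, a fall of 1.00 ± 0.15 (adjusted p = 0.000911). In both genes the groups were far apart, and the treated mice lay close together. Timm9 had the smallest adjusted p of the import genes.

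Timm8a1 and Timm13 encode the partners of the second ring. Timm8a1, whose human counterpart is mutated in deafness-dystonia syndrome, was at 12.2, 10.8 and 10.6 CPM untreated and 7.20, 5.97 and 6.92 CPM treated. It fell by 0.74 ± 0.13 log2 units (edgeR adjusted p = 0.00212). Timm13 was at 79.8, 83.2 and 92.9 CPM and 53.9, 63.9 and 66.1 CPM and fell by 0.48 ± 0.10 (adjusted p = 0.0042). Neither gene had overlapping groups.

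Timm8b, a relative of Timm8a1, fell by 0.28 ± 0.08 log2 units (edgeR adjusted p = 0.0181). Its call was lost without untreated mouse 1 (adjusted p = 0.0595), without untreated mouse 2 (0.07995) and in run 1 alone (0.0623), and the gene overlaps Nkapd1. Timm10b, a ring member associated with TIM22, differed by -0.19 ± 0.10 with overlapping groups (adjusted p = 0.143). As a share of the summed small TIM level per kb, Timm9 averaged 16.2% untreated and 12.2% treated, while Timm8b averaged 27.0% and 31.2% and Timm10b 12.9% and 15.9%.

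The MIA pathway folds small cysteine-rich proteins, the small TIMs among them, inside the intermembrane space, and Chchd4 encodes its central oxidoreductase MIA40. Chchd4 (GRCm38 chromosome 6, 91464276 to 91473423) was at 39.5, 32.0 and 36.2 CPM in the untreated mice and 22.8, 18.0 and 25.8 CPM in the treated mice. It fell by 0.69 ± 0.14 log2 units (edgeR adjusted p = 0.0041), and treated mouse 2 was lowest.

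TIM22 inserts carrier proteins into the inner membrane, and neither of its genes passed the test, also not in DESeq2 or limma-voom. Timm22, the channel, was at 44.6, 42.9 and 45.3 CPM untreated and 36.9, 41.3 and 39.7 CPM treated, a difference of -0.17 ± 0.07 (edgeR adjusted p = 0.0836, unadjusted p = 0.0467). Timm29, a subunit found in animals, was at 78.8, 77.7 and 79.0 CPM and 66.2, 75.8 and 70.1 CPM, a difference of -0.15 ± 0.07 (adjusted p = 0.113, unadjusted p = 0.0674). In each gene all treated mice lay below all untreated mice, by margins that were small beside the spread of the treated mice. Timm29 overlaps Yipf2.

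In the TIM23 channel, 2 of 5 genes fell. Timm50, the receptor that receives chains from TOM, was at 82.6, 85.2 and 85.7 CPM untreated and 59.0, 65.0 and 70.4 CPM treated, a fall of 0.38 ± 0.08 log2 units (edgeR adjusted p = 0.00438). Timm21, which links TIM23 to TOM and to the respiratory chain, was at 39.2, 35.8 and 36.7 CPM and 32.0, 32.2 and 31.6 CPM. It fell by 0.22 ± 0.07 (adjusted p = 0.0336), a call that was lost when any 1 of the 6 mice was left out (adjusted p 0.0546 without untreated mouse 3 to 0.114 without untreated mouse 1). Timm50 held its call in all 19 settings.

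The other channel genes did not pass. Timm23, the channel protein itself, was at 12.3, 15.4 and 17.8 CPM and 11.5, 13.7 and 13.2 CPM, with overlap (difference -0.24 ± 0.15, edgeR adjusted p = 0.197). Timm17a and Timm17b encode alternative partners of Timm23. Timm17a was at 36.8, 32.3 and 34.1 CPM untreated and 30.2, 23.1 and 31.3 CPM treated, a difference of -0.29 ± 0.12 (adjusted p = 0.0794), with treated mouse 2 well below the rest. Timm17b was at 30.2, 33.0 and 31.2 CPM and 28.9, 25.9 and 28.8 CPM, a difference of -0.18 ± 0.08 (adjusted p = 0.112). For both paralogs each treated mouse was below each untreated mouse.

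The PAM motor had 3 of 5 genes lower, led by Hspa9. Hspa9 encodes mortalin, the mitochondrial Hsp70 that supplies the pulling force and also folds matrix proteins. It was at 774, 706 and 657 CPM in the untreated mice and 403, 356 and 437 CPM in the treated mice. Means were 712 ± 58.9 and 398 ± 40.5 CPM (SD, n = 3 each), a fall of 0.84 ± 0.09 log2 units or 1.79-fold (edgeR adjusted p = 0.000298). All treated mice were far below the untreated mice, and treated mouse 2 was lowest. Per kb, Hspa9 held 74.4, 73.1 and 72.6% of the PAM total in the untreated mice and 66.0, 62.5 and 67.2% in the treated mice.

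Timm44 anchors Hspa9 at the channel. It was at 84.2, 83.1 and 79.5 CPM and 61.6, 65.5 and 64.5 CPM and fell by 0.37 ± 0.07 log2 units (edgeR adjusted p = 0.00221). Grpel1, the nucleotide exchange factor that resets Hspa9, was at 108, 104 and 94.9 CPM and 84.3, 84.2 and 85.1 CPM and fell by 0.28 ± 0.07 (adjusted p = 0.0109). The Grpel1 call was just lost without untreated mouse 2 (adjusted p = 0.05001), and the gene overlaps Tada2b. The co-chaperone Dnajc19 was at 5.73, 5.30 and 5.22 CPM and 5.79, 5.82 and 5.31 CPM (difference 0.06 ± 0.14, adjusted p = 0.753), and its regulator Pam16 differed by 0.08 ± 0.25 (adjusted p = 0.813). Both had low counts and overlapping groups, and both share genomic positions with a more abundant gene, Fxr1 for Dnajc19 and Glis2 for Pam16.

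The matrix processing peptidase cuts targeting signals from imported chains. Its catalytic subunit Pmpcb was at 86.6, 80.4 and 79.4 CPM untreated and 69.9, 62.7 and 71.8 CPM treated, a fall of 0.27 ± 0.08 log2 units (edgeR adjusted p = 0.0191). That call was lost without untreated mouse 1 (adjusted p = 0.0681) and, narrowly, without untreated mouse 2 (0.05008). The partner subunit Pmpca was at 131, 122 and 127 CPM and 115, 105 and 121 CPM, a difference of -0.15 ± 0.07 (adjusted p = 0.109). The groups did not overlap for either subunit, and Pmpca overlaps Inpp5e in the annotation. Timmdc1, which has a Timm name but assembles respiratory complex I, was at 30.5, 31.1 and 32.5 CPM and 30.0, 26.5 and 28.1 CPM (difference -0.15 ± 0.08, adjusted p = 0.15).

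Chchd3 and Chchd6 encode MIC19 and MIC25, subunits of the MICOS complex that shapes the cristae and ties the inner membrane to SAM, and both fell. Chchd3 was at 564, 508 and 431 CPM untreated and 328, 319 and 344 CPM treated, a fall of 0.60 ± 0.10 log2 units (edgeR adjusted p = 0.00151). Chchd6 (GRCm38 chromosome 6, 89383146 to 89595652) was at 20.5, 21.9 and 20.7 CPM and 9.70, 7.15 and 12.4 CPM. Its fall of 1.11 ± 0.18 log2 units, or 2.15-fold (adjusted p = 0.00178), had the largest estimate among the import genes, and the treated mice spread more widely than the untreated mice. Chchd3 had the highest level per kb of all import genes, 349.6 CPM per kb untreated and 231 treated, and Chchd6 stood at 18.7 and 8.66.

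The other CHCHD genes have mixed roles. Chchd1, a protein of the mitochondrial ribosome, was at 66.5, 58.3 and 58.0 CPM and 41.7, 36.6 and 44.0 CPM and fell by 0.58 ± 0.09 log2 units (edgeR adjusted p = 0.00142). Chchd7, a small intermembrane space protein, was at 16.0, 17.4 and 16.7 CPM and 11.0, 12.4 and 11.8 CPM and fell by 0.51 ± 0.10 (adjusted p = 0.0034). Chchd5 was at 19.8, 22.9 and 19.6 CPM and 14.6, 14.9 and 16.8 CPM and fell by 0.42 ± 0.11 (adjusted p = 0.0107), a call lost without untreated mouse 2 (0.0545). All of these were separated between groups.

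Chchd2 and Chchd10, related genes linked to inherited neurological disease in people, did not pass. Chchd2 was at 127, 102 and 96.0 CPM and 92.7, 88.0 and 88.8 CPM, a difference of -0.27 ± 0.10 (edgeR adjusted p = 0.0555). It was called lower in some settings, for example without untreated mouse 3 (adjusted p = 0.0207). Its value is uncertain because the table also counts the pseudogene Chchd2-ps, at 960 to 1533 counts per mouse, and the handling of reads with several matches is not given in the sources used here. Chchd10 was at low levels that overlapped between the groups (difference -0.19 ± 0.18, adjusted p = 0.39).

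The 4 paralog pairs were compared by their ratio within each mouse, which does not depend on library scaling. The log2 ratio of Tomm40 to Tomm40l per kb was 2.38, 2.44 and 2.45 in the untreated mice and 2.05, 1.99 and 2.30 in the treated mice, a difference of -0.31 ± 0.10 (SE). The log2 ratio of Chchd3 to Chchd6 was 4.44, 4.19 and 4.03 untreated and 4.73, 5.13 and 4.44 treated, a difference of 0.55 ± 0.23. Both pairs had groups that did not overlap. For Chchd3 to Chchd6 the groups nearly touched, with untreated mouse 1 at 4.4374 and treated mouse 3 at 4.4445. Both pairs gave an exact two-sided permutation p of 0.1, the smallest that 3 against 3 mice allow. Timm17a to Timm17b differed by -0.12 ± 0.12 and Grpel1 to Grpel2 by 0.07 ± 0.09, each with an exact permutation p of 0.4 and overlapping groups. This exact test could not reach 0.05 for any of the 4 pairs.

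**Figure D4:**
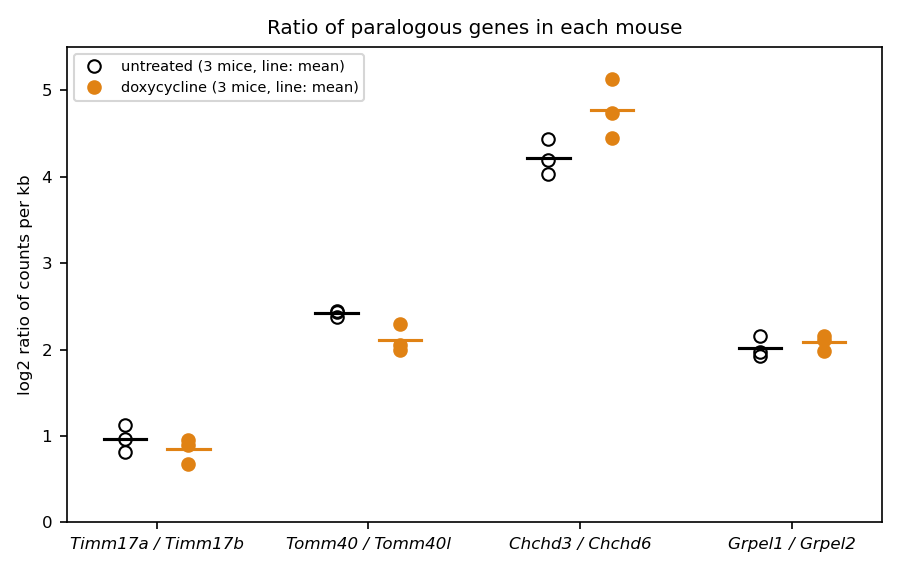
Log2 ratio of counts per kb within each mouse for the 4 paralog pairs, with untreated and doxycycline mice as points and group means as lines. The groups are apart for Tomm40 over Tomm40l (lower after doxycycline) and nearly touch without overlap for Chchd3 over Chchd6 (higher). They overlap for Timm17a over Timm17b and Grpel1 over Grpel2.

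Among themselves the import genes covered a 134-fold range of levels, from 2.62 to 350 CPM per kb in the untreated mice. The median coefficient of variation of a gene was 5.96% over the untreated and 7.09% over the treated mice. Across the 39 genes, which are not independent replicates and share the same libraries, the log2 level per kb and the log2 fold change had a Pearson r of -0.28 and a Spearman rho of -0.31. Treated mouse 2 had the lowest level of its group in 22 of the 39 genes, and treated mouse 3 had the highest in 24.

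A list of 24 further import and folding factors was chosen with earlier results of these data known, so it is no independent support. These factors were also mostly lower. Of these 14 fell and 22 had estimates below zero, with a median log2 fold change of -0.31, beside 25.2% called lower and a median of -0.0037 over all tested genes. Pitrm1, the peptidase that degrades cleaved targeting signals, was at 245, 258 and 247 CPM untreated and 148, 132 and 167 CPM treated, a fall of 0.74 ± 0.09 log2 units (edgeR adjusted p = 0.000379). Immp2l, a subunit of the inner membrane peptidase, was at 1.88, 1.66 and 1.56 CPM and 0.500, 0.599 and 0.690 CPM and fell by 1.5 ± 0.25 (adjusted p = 0.00163). Its level was low but its groups were apart.

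Partners of Chchd3 and Chchd6 in MICOS were in part lower. Immt, the MICOS core subunit mitofilin, was at 293, 286 and 253 CPM and 194, 200.03 and 210.4 CPM and fell by 0.46 ± 0.07 log2 units (edgeR adjusted p = 0.00147). Dnajc11, a protein that bridges MICOS and SAM, was at 117, 121 and 118 CPM and 88.5, 90.8 and 96.5 CPM and fell by 0.36 ± 0.06 (adjusted p = 0.00209). The MICOS subunits Apoo and Apool differed by -0.28 ± 0.22 and -0.18 ± 0.08 and did not pass (adjusted p = 0.324 and 0.11). In the matrix, the chaperonin genes Hspd1 and Hspe1 fell by 0.88 ± 0.16 and 0.76 ± 0.14 log2 units (adjusted p = 0.00321 and 0.0027). Mipep, Dnajc15, Romo1, Mtch2, Dnlz, Grpel2, Xpnpep3 and Aifm1 also fell. The calls of Xpnpep3 (any mouse but untreated mouse 1), Grpel2 (untreated mouse 1 or treated mouse 3) and Aifm1 (untreated mouse 2) were lost when a mouse named here was left out, and that of Dnlz in run 2 alone. The outer membrane metaxins Mtx1, Mtx2 and Mtx3, which work with Samm50, had differences of -0.19, -0.21 and -0.04 and did not pass.

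**Figure D5:**
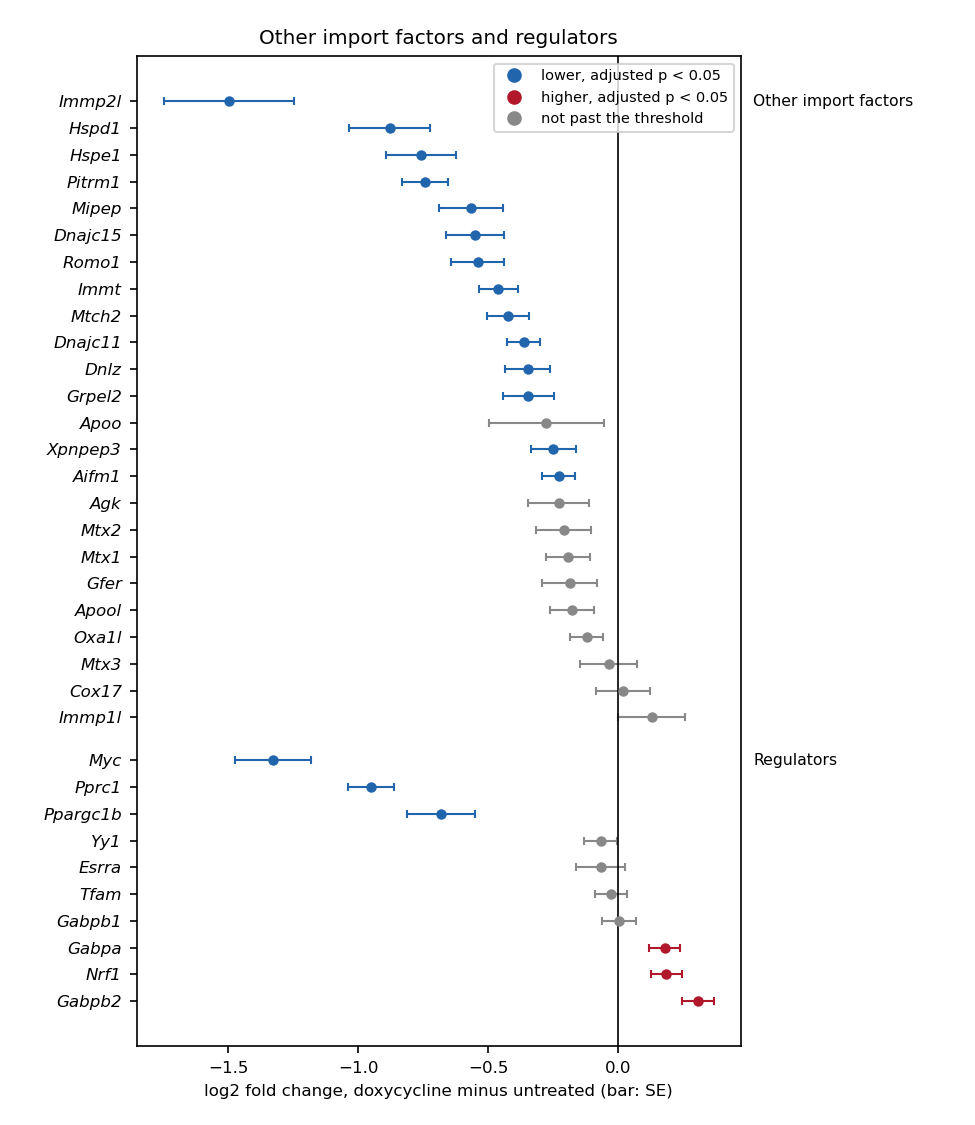
Log2 fold change, doxycycline minus untreated (horizontal axis, log2 units; bars are 1 SE, 3 mice per group), of the 24 other import and folding factors and the 10 tested regulators of nuclear genes for mitochondria. Blue is lower and red higher at an adjusted p below 0.05; Immp2l and Myc have the lowest estimates, and Gabpb2, Nrf1 and Gabpa are higher.

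Transcription factors and coactivators known to control nuclear genes for mitochondria were called in both directions, 3 lower and 3 higher of 10 tested, shares near the 25.2% lower and 24.8% higher of all tested genes. Myc, a growth-driving factor that binds E-boxes, was at 363, 340.2 and 392 CPM in the untreated mice and 113, 151 and 172 CPM in the treated mice, a fall of 1.33 ± 0.15 log2 units (edgeR adjusted p = 0.000439). The coactivator Pprc1 was at 152, 130.3 and 139 CPM and 78.7, 66.1 and 73.5 CPM and fell by 0.95 ± 0.09 (adjusted p = 0.000134), and Ppargc1b fell by 0.68 ± 0.13 (adjusted p = 0.00324). Gabpb2 rose by 0.31 ± 0.06, Nrf1 by 0.19 ± 0.06 and Gabpa by 0.18 ± 0.06 (adjusted p = 0.00332, 0.0315 and 0.0316). The Nrf1 call was lost without untreated mouse 1 or 2 or treated mouse 2 or 3, and the Gabpa call without any of the untreated mice or treated mouse 1. Their adjusted p reached 0.145 and 0.135 without untreated mouse 2. Gabpb1, Esrra, Yy1 and Tfam did not pass, and Ppargc1a had 0 counts in every mouse. Whether any of these factors bears on the import genes was not tested.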

How the data were processed

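Per the labels' protocols, RNA of sorted spleen T-ALL cells was extracted with an RNeasy plus mini kit (QIAGEN) and made into standard Illumina libraries. The authors deposited raw counts per Entrez gene with a gene length. Per the submitters' processing notes, CASAVA 1.8.1, featureCounts and mm10 were used, with the aligner, annotation, strand setting and treatment of reads with several matches not given in the sources used here. Counts in the 12 per-library tables equalled the whole-series table. Symbols came from RefSeq GRCm38.p6 by Entrez identifier (25275 of 27179).

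Runs were summed per mouse. Genes were filtered with filterByExpr, scaled by TMM and tested with edgeR 4.0.16 (robust quasi-likelihood, no block, R 4.3.3) with Benjamini-Hochberg adjustment at 0.05. The code was tested on simulated data in which few genes changed, unlike the data here. In that simulation the share of false calls was above the nominal 0.05. A setting with many changed genes was not simulated. CPM use TMM-scaled library sizes, and CPM per kb the deposited lengths. SE is the log2 fold change over the square root of F. Paralog ratios used an exact permutation test. Values per mouse are given for up to 4 members with the smallest p in each role, for the paralog pairs and for the 4 other factors with the smallest p; Myc, Pprc1, Tomm22 and Timm23 were added after their values were seen. Members and lists were chosen with earlier results of these data known. Alternatives were RLE, upper quartile or no scaling factors, other filters, DESeq2 1.42.0, limma-voom 3.58.1, each run alone, a fit without robust estimation, a replicate block and leaving out mice. For the other factors and regulators that passed, these were added after seeing the data. Protein sequences were not used here. In the labels, the library of untreated mouse 3 has another name form (INJ) than the sorted libraries.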

Additional observations from a re-analysis of the deposited data

How the results depend on the processing

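The number of import genes called lower was 24 and ranged from 19 to 25 over 18 alternatives, with Tomm34 called higher in each. Leaving out 1 mouse gave 19 (untreated mouse 2) to 24. The share of all tested genes called lower moved as well, from 18.2% (no filter) to 26.1% (over 1 CPM in 3 mice). It was 25.2% in the main fit and 18.3% without untreated mouse 2. The 19 genes lower in all settings are the 24 without Timm21, Timm8b, Pmpcb, Grpel1 and Chchd5. The other import factors called lower ranged from 12 to 14. The direction of Pam16, which never passed the test, turned from 0.08 to -0.24 in run 1 alone, against 0.49 in run 2 alone, and to -0.00032 without untreated mouse 2. Leaving out 1 mouse gave -0.054 (untreated mouse 1) to 0.30 (untreated mouse 3), and leaving out untreated mouse 3 with treated mouse 2 gave 0.35. No other import gene changed direction.

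The main fit did not pair the samples by mouse number. The deviations of same-numbered mice from their group means correlated at 0.16, -0.01 and -0.10. Those of differently numbered mice correlated at -0.19 to 0.17. So few values cannot settle whether the samples were paired. A fit with the mouse number as a replicate block called 25 import genes lower and 1 higher, and 13 other import factors lower. Of all genes tested in this fit, 24% were called lower and 23.6% higher. With the block Timm17a (adjusted p = 0.0447) and Chchd2 (0.0437) were called and Timm21 (0.0573), Xpnpep3 (0.0710), Nrf1 (0.0516) and Gabpa (0.0521) were not. For the paralog ratios, the mean difference within mouse numbers equals the difference of the group means by construction. The block values were therefore no check of these ratios. They were -0.12 for Timm17a to Timm17b, -0.31 for Tomm40 to Tomm40l, 0.55 for Chchd3 to Chchd6 and 0.07 for Grpel1 to Grpel2.

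With 3 mice per group from 1 leukemia, small differences such as those of the TIM22 genes were not resolved from the spread between mice. Members with few counts (Pam16, Dnajc19, Chchd10) have wide errors. Levels of RNA say nothing of protein or import activity.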
